A study of Homo sapiens with 2 samples.

Results

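The nuclear genes for transcription and replication of mitochondrial DNA were examined for NRF-1 promoter peaks in U251, a human glioblastoma cell line. The 10 genes were TFAM, TFB1M, TFB2M, POLRMT, TEFM, POLG, POLG2, TWNK, SSBP1 and MTERF3, of 19794 protein-coding genes, and they were taken as a list by name, by a rule that uses no peak value, although earlier results of these data were known when the list was drawn up. Both groups were U251 cells subjected to chromatin immunoprecipitation with an antibody against NRF-1. The siControl group received a control siRNA and the siAATF group an siRNA against AATF, a transcriptional cofactor that the study examined as a partner of NRF-1. The libraries were made by ChIPmentation, in which a transposase adds the sequencing adapters on the immunoprecipitated chromatin. There was 1 peak list per condition, of 18014 peaks in siControl and 18454 in siAATF, with no replicate, so each difference given here is between 2 libraries and has no replicate error. Duplicate experiments were described, but both sample labels carry replicate number 1, and whether runs were pooled was not stated. The labels of both samples give U251, which was followed here, although the series design text gives U138.

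Mitochondrial DNA encodes a small set of respiratory chain subunits and the RNAs needed to translate them, and every protein that copies or transcribes it is made from nuclear genes and imported. POLRMT, a single-subunit RNA polymerase, starts transcription together with TFAM, which bends and packages the DNA, and TFB2M, which helps to open the promoter. Replication needs the polymerase POLG with its accessory subunit POLG2, the helicase TWNK and the single-stranded DNA binding protein SSBP1. NRF-1 binds a GC-rich palindrome in the promoters of many nuclear genes whose products act in mitochondria, and TFAM is a classical target.

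The sequence that NRF-1 recognises was looked up first in the siControl peak of each gene. The core searched was the palindrome of 10 bases formed by GCGCA followed by TGCGC, which reads alike on both strands. An exact core was present in the promoter peak of 2 of the 10 genes, TFB1M and POLRMT, against 3.89% of all coding genes with a siControl promoter peak. With up to 1 mismatch it was present in 6 of 10 genes (60%, exact 95% CI 26.2 to 87.8), against 23.9%. The peaks of TEFM, POLG, SSBP1 and MTERF3 held none. In TFAM, POLG2 and TWNK the same base differed, with the substitution A5C counted from 1 at the 5′ end of the core on the strand of the gene. POLRMT held a second word, overlapping the exact core, with T6G, which is the same word read on the other strand. The A5C word was thus found on either strand in 4 of 10 peaks, against 9.94% of coding genes with a peak. This word was singled out after its presence had been seen. These matches describe letters in the peak and do not by themselves mark a bound site.

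The 7 matches are shown with 10 bases on either side because they come from the 6 members with the highest −log10 q, a measure explained further on. Each is hg19 sequence on the strand of the gene, 5′ to 3′, and capitals mark the bases of the core that match, so that a lower-case letter within the core is the mismatch. They lay at chr6:155635731-155635760 for TFB1M, at chr19:633542-633571 and chr19:633536-633565 for POLRMT, at chr10:60145097-60145126 for TFAM, at chr17:62493167-62493196 for POLG2, at chr10:102747034-102747063 for TWNK and at chr1:246729561-246729590 for TFB2M. The genes for TFAM and TWNK are on the plus strand and the others on the minus strand.
TFB1M: gcaggacttaGCGCATGCGCtctcagcacg
POLRMT, exact: ggcggcgcggGCGCATGCGCaggcgcgggc
POLRMT, T6G: gcgggcgcatGCGCAgGCGCgggccggtgg
TFAM, A5C: acgctctcccGCGCcTGCGCcaattccgcc
POLG2, A5C: cacctccgttGCGCcTGCGCcgtggcctct
TWNK, A5C: accccgacccGCGCcTGCGCacttcccttg
TFB2M, G1T: gctccgctgttCGCATGCGCaggctctagt

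All 7 words lay upstream of the canonical transcription start and inside the peaks of both lists. Counted from the start, with negative values upstream, the centre of the word was at −9 bp in POLG2, −12 bp in TFB2M, −13 and −19 bp in POLRMT, −59 bp in TFAM, −127 bp in TFB1M and −252 bp in TWNK. The TWNK word was the farthest from its own start. It lay 206 bp into MRPL43, a mitochondrial ribosomal protein gene on the opposite strand, outside the exons of its canonical transcript. Within 250 bp of the canonical start an exact core was found for 2 members, against 1.83% of 19515 coding genes. With up to 1 mismatch it was found for 5 members, against 11.6%. A control palindrome of the same bases, GCCGA followed by TCGGC, was found with up to 1 mismatch in 1 member, TFAM, against 4.89% of coding genes with a peak.

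The longer context of 2 promoters is given for the genes with the exact core. The 100 bases around the TFB1M core (chr6:155635696-155635795) and the 100 bases before the POLRMT start (chr19:633538-633637) are free of annotated exons. In POLRMT the exact core and the word with T6G run into each other, and the lower-case letter within the capitals is the mismatch of the latter.
TFB1M: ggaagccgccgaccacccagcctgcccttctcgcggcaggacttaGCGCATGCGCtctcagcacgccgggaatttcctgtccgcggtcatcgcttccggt
POLRMT: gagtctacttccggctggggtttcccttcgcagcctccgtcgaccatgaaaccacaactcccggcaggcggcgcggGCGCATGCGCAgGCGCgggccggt

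A second word, CCGGAAG, was counted on both strands after these sequences had been read, because ETS family factors such as GABP bind it and are also known at promoters of mitochondrial genes. It was present in the siControl peak of 6 of 10 members, against 29.2% of coding genes with a peak. TFB1M had 2, and POLRMT, TEFM, POLG2, TWNK and SSBP1 had 1 each. TFAM, TFB2M, POLG and MTERF3 had none. In siAATF the count was 5 of 10, since the narrower TEFM peak no longer held the word. It can share at most 1 base with an exact copy of either palindrome, and TEFM and SSBP1 held it without an NRF-1 core.

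Each of the 10 genes had exactly 1 promoter peak in siControl and 1 in siAATF, a promoter being 1 kb on either side of any protein-coding transcript start. The background was 61.1% of all coding genes in siControl and 60.7% in siAATF, and 59.5% had a promoter peak in both. With 10 genes, the exact 95% interval of the members' share ran from 69.2% to 100%. The peaks of the 2 lists overlapped for all 10 genes. A −log10 q of at least 5, where q is the p-value of a peak adjusted by the peak caller, was reached by 9 members in each list, against 51.4% of coding genes in each list. The exception was TEFM in both lists.

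**Figure D1:**
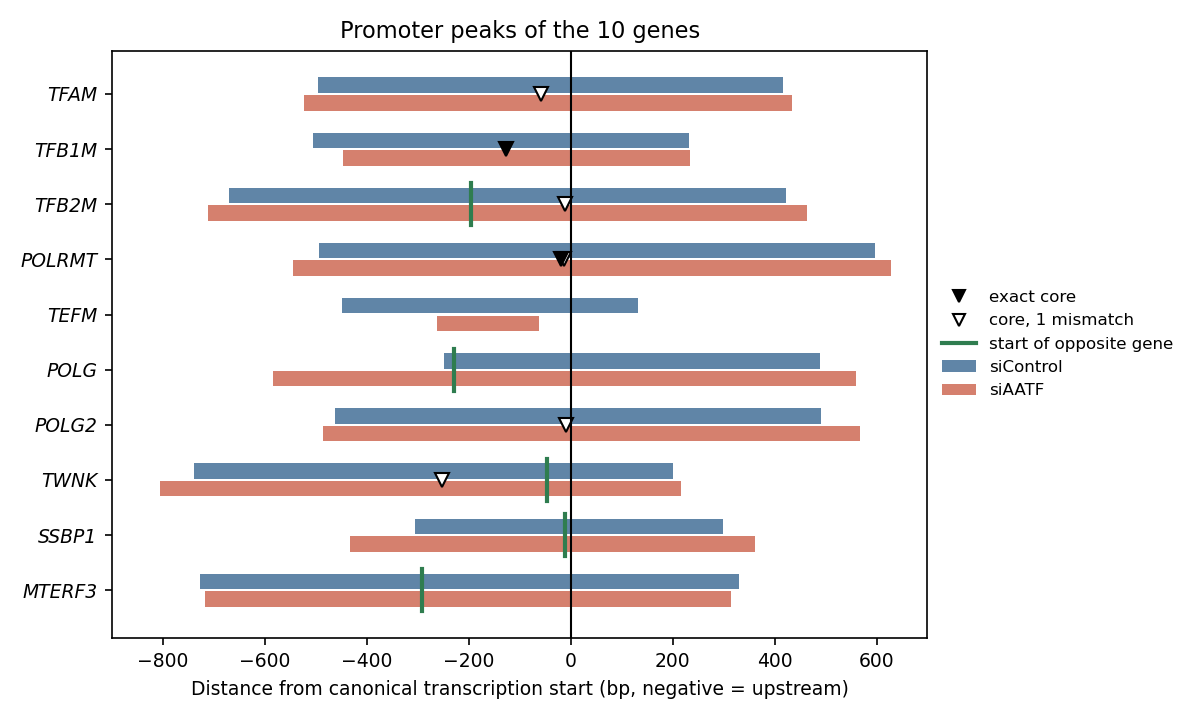
Promoter peaks of the 10 genes drawn as distance in bp from the canonical transcription start, negative upstream, with the siControl peak above the siAATF peak. Black triangles mark exact cores, white triangles cores with 1 mismatch (in POLRMT the white one lies under the black one) and green lines the start of a gene on the opposite strand. The siAATF peak of TEFM, 200 bp wide, is the only one that does not reach its start.

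Peaks were centred near the start. The midpoint lay between −269.5 and 120.5 bp from it in siControl, with a median of −82 bp, and between −294.5 and 42.5 bp in siAATF, with a median of −75.5 bp. The siControl peak spanned the canonical start in 10 of 10 genes and the siAATF peak in 9 of 10. Exon 1 was covered to its end in 7 genes in each list. Promoter peaks were taken within 1 kb of a start, and over all coding genes with one the median siControl width was 854 bp. No share over all coding genes is given for these counts or for the overlap between the lists. Whether they are particular to the members is therefore unknown. Not every annotated coding start was near a peak. For POLRMT 1 of 3 starts, for POLG 3 of 9, for POLG2 1 of 2 and for MTERF3 2 of 4 were within 1 kb of a peak, while all starts were for the other 6 genes.

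The strength of each peak was described by the fold enrichment over the local background of its library, by its −log10 q and by its percentile rank within its list, which runs from 0 to 100 with 100 the strongest. Fold enrichment and −log10 q are relative to each library and were not compared across lists, whereas ranks were set side by side. Both are means over the called region, so the ranks also depend on where its edges were called. Ranked by fold enrichment, the members had a median of 79.0 in siControl and 74.6 in siAATF. All coding genes with a promoter peak had 63.4 and 64.4. Ranked by −log10 q, the medians were 87.1 and 87.7 for the members and 65.04 and 66.1 for all such genes. Members with a core, with up to 1 mismatch, had a −log10 q of 48.0 to 82.8 in siControl and 49.0 to 68.7 in siAATF, and the 4 without had 3.84 to 33.6 and 3.28 to 33.3. By −log10 q the 2 sets of members did not overlap in either list. By rank of fold enrichment they did overlap. In siControl these ranks ran from 72.4 to 99.0 with a core and from 31.5 to 78.0 without. In siAATF they ran from 66.6 to 99.9 and from 27.7 to 79.2. Among all coding genes with a peak in both lists, the median siControl rank by −log10 q was 91.4 with a core and 56.9 without. There the ranges did overlap, from 1.63 to 100 with a core and from 0.0278 to 99.8 without. Peaks with a core were also somewhat wider among the members, with a median of 948 bp against 672.5 bp, and a wider peak offers more room for a word. The part of width in this difference was not tested.

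**Figure D2:**
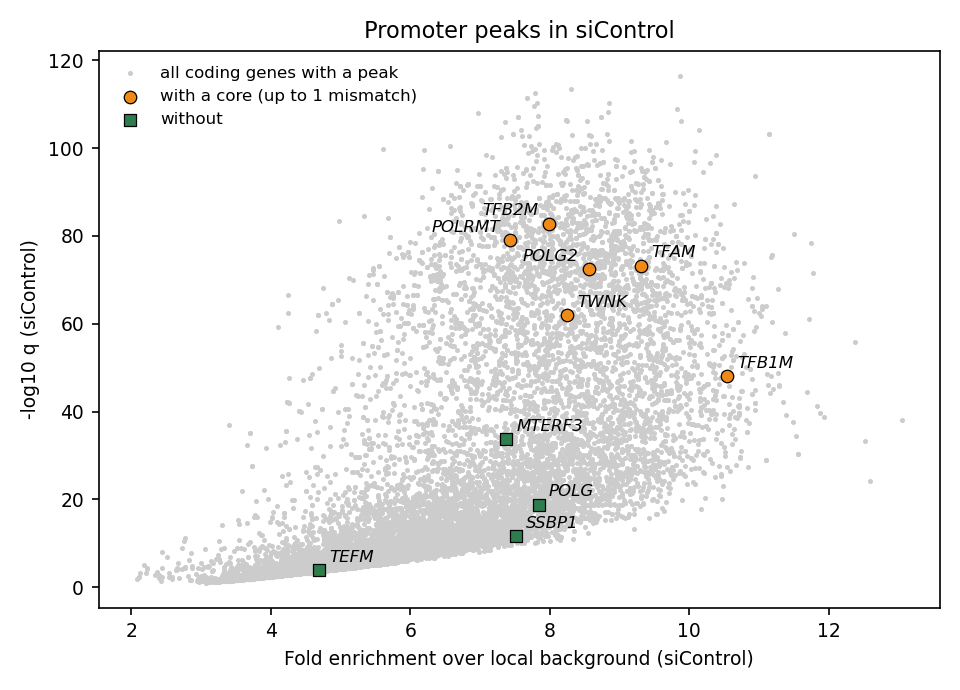
Fold enrichment (x axis) and −log10 q (y axis) of the strongest siControl promoter peak of each coding gene, in grey, with the 10 genes as orange circles (core with up to 1 mismatch) or green squares (no core). The circles lie at a −log10 q of 48.0 or more and the squares at 33.6 or less, and TFB1M stands out by fold enrichment but not by −log10 q.

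Of the transcription initiation genes, TFAM had a peak at chr10:60144674-60145586 in siControl and at chr10:60144646-60145604 in siAATF. Its fold enrichment was 9.31 and 8.57, its −log10 q 73.3 and 56.5, and its rank 93.9 and 92.2. The TFAM peak thus stood in the top decile of both lists, with a change in rank by fold enrichment of −1.70 points. By −log10 q the change in rank was −4.08 points. TFB2M had a peak at chr1:246729140-246730234, with a fold enrichment of 7.99 and a −log10 q of 82.8, the highest of the 10 in siControl. The siAATF peak lay at chr1:246729099-246730274, with 7.07 and 68.7, again the highest −log10 q of the 10. Its rank by fold enrichment was 80.0 in siControl and 72.9 in siAATF. The same peak covers the start of CNST, which lies 195 bp upstream on the opposite strand, so the list cannot assign it to either gene.

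POLRMT had its peak at chr19:632939-634031 in siControl, with a fold enrichment of 7.43, a −log10 q of 79.0 and a rank of 72.4. Its siAATF peak lay at chr19:632908-634081, with 6.63, 67.1 and 66.6. By −log10 q this peak was the second of the 10 in both lists and by fold enrichment only the eighth and seventh, so the measures place it differently. TFB1M, a relative of TFB2M that methylates the RNA of the small mitochondrial ribosomal subunit, showed the opposite pattern. Its peak at chr6:155635386-155636123 in siControl had a fold enrichment of 10.5, a rank of 99.0 and a −log10 q of 48.0. In siAATF the peak at chr6:155635384-155636064 had 11.1, 99.9 and 52.9. It was first of the 10 by fold enrichment in both lists, and the peaks were 738 and 681 bp wide.

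TEFM, which keeps POLRMT moving during elongation, had the weakest peak of the 10 in both lists. In siControl it was at chr17:29233124-29233704, with a fold enrichment of 4.69, a −log10 q of 3.84 and a rank of 31.5. In siAATF it was at chr17:29233319-29233518, with 4.39, 3.28 and 27.7, and it covered 34.4% of the siControl peak. Its nearest edge lay at −63 bp from the start. MTERF3, a member of the mitochondrial termination factor family with a role in mitochondrial ribosome assembly, had a peak at chr8:97273507-97274565, with a fold enrichment of 7.37, a −log10 q of 33.6 and a rank of 71.5. The siAATF values were 7.51, 33.3 and 79.2, for a peak at chr8:97273523-97274555. The start of PTDSS1, an enzyme gene of phosphatidylserine synthesis, lay 292 bp upstream on the opposite strand, within the same peak.

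Of the replication genes, POLG had a peak at chr15:89877565-89878304 in siControl and a wider one at chr15:89877496-89878639 in siAATF, of 740 and 1144 bp. Its fold enrichment was 7.84 and 6.16, its −log10 q 18.8 and 12.9, and its rank 78.0 and 59.3. This change of −18.7 points was the furthest from 0 among the 10, and the peak also covered the start of the lncRNA POLG-DT, 229 bp upstream on the opposite strand. The promoter window of POLGARF, encoded in another reading frame of POLG transcripts, overlapped it as well. POLG2 had a peak at chr17:62492680-62493635, with a fold enrichment of 8.56, a −log10 q of 72.4 and a rank of 87.1. In siAATF it was at chr17:62492604-62493658, with 7.42, 61.7 and 77.9. The catalytic and the accessory subunit of the same polymerase thus differed in −log10 q in both lists, and only POLG2 held a core.

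TWNK had a peak at chr10:102746561-102747500 in siControl, with a fold enrichment of 8.25, a −log10 q of 62.0 and a rank of 83.4. The peak at chr10:102746494-102747517 in siAATF had 7.32, 49.0 and 76.4. TWNK and MRPL43 start 46 bp apart on opposite strands, and 1 peak covered both starts. SSBP1 had a peak at chr7:141437853-141438457, with a fold enrichment of 7.51, a −log10 q of 11.6 and a rank of 73.5. In siAATF it was at chr7:141437725-141438520, with 6.01, 9.18 and 56.99. The lncRNA WEE2-AS1 started 12 bp upstream on the opposite strand. In all, 5 of the 10 siControl peaks held the start of another gene on the opposite strand, against 32.0% of all coding genes with a siControl promoter peak. It was a coding gene in 3 of 10, against 15.9%.

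The ranks of the members were then set side by side between the conditions. The study asked whether AATF depletion affects NRF-1 occupancy. It reported that binding was not fully lost at most NRF-1 sites in U251. At selected respiratory chain gene promoters in U138 it reported no change. In U251 it also reported a shift of NRF-1 protein from nucleus to cytoplasm. In some glioblastoma cell lines it reported less NRF-1 protein after AATF depletion. The comparison of ranks was made here and is not one the study used. A rank within its own list cannot show a change common to all peaks, so a lower rank is not a measure of lower occupancy. By fold enrichment the rank was lower in siAATF for 8 of 10 genes, against 48.9% of the 11774 coding genes with a peak in both lists. By −log10 q it was lower for the same 8 genes, against 44.5%. TFB1M, at 0.858 points by fold enrichment and 4.03 by −log10 q, and MTERF3, at 7.68 and 1.58, were higher by both measures. The exact 95% interval of 8 of 10 ran from 44.4% to 97.5%. The 10 genes are not replicates of the condition, and no test between the conditions was possible.

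**Figure D3:**
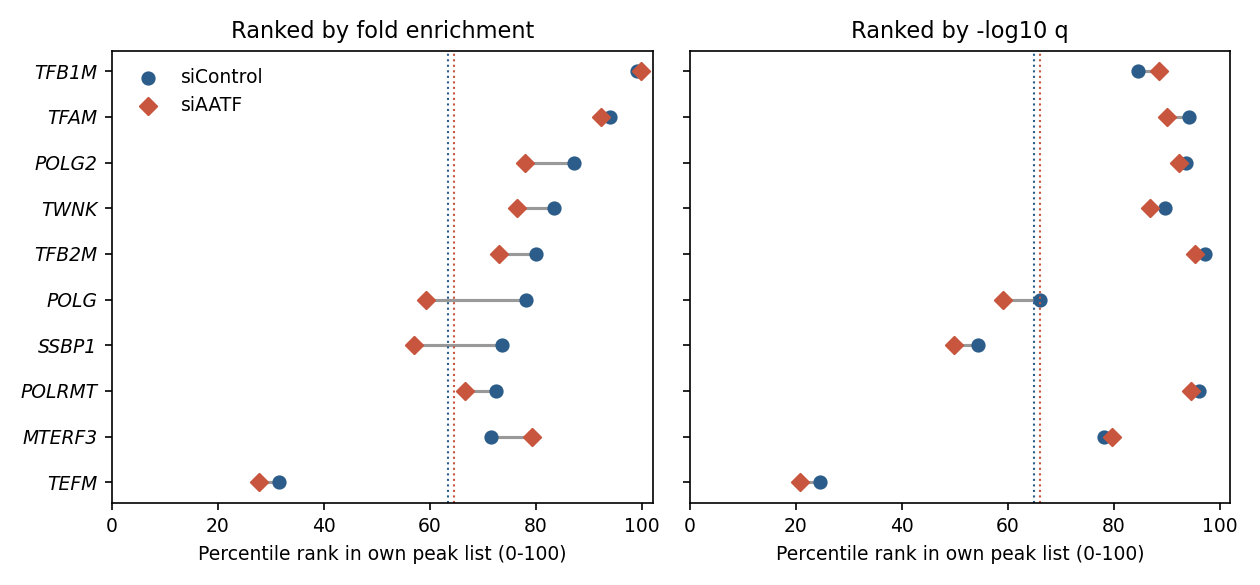
Percentile rank of the promoter peak of each gene in its own list (x axis, 0 to 100), by fold enrichment on the left and by −log10 q on the right, for siControl (circles) and siAATF (diamonds), with dotted lines at the medians of all coding genes with a promoter peak. In both panels 8 of 10 diamonds lie to the left of their circle, and TFB1M and MTERF3 are the exceptions.

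Without regard to sign, the change by fold enrichment had a median of 7.03 points in the members and 5.12 in all coding genes with both peaks. With sign, the members' median was −6.36 points by fold enrichment, with a range of −18.7 to 7.68, and −2.41 points by −log10 q, with a range of −7.06 to 4.03. Over all coding genes with both peaks the medians were 0.156 and 0.467 points, and the quartiles of the changes by fold enrichment were −4.70 and 5.53. Of the members, 7 lay outside these quartiles, 6 of them on the lower side. A rank lower by more than 5 points was found for 6 of 10 members, against 24.0% of all such genes. By fold enrichment over all peaks, none of the 10 differed by more than 20 points (exact 95% CI 0 to 30.8%). This interval includes the 6.55% found for all such genes. After POLG, SSBP1 had the next largest difference, with −16.5 points, followed by POLG2 with −9.17, TFB2M with −7.08, TWNK with −6.98 and POLRMT with −5.74. TEFM, at −3.74 points, TFAM and TFB1M lay between the quartiles by fold enrichment. By −log10 q, with quartiles of −2.07 and 3.30, they lay outside, at −3.63, −4.08 and 4.03 points. TFB2M, POLRMT, POLG2 and MTERF3 lay between the quartiles by −log10 q, and POLG, SSBP1 and TWNK lay below them. POLG and SSBP1 also had wider peaks in siAATF, by 404 and 191 bp. The values of a peak are means over its region, and the part of width in these lower ranks was not tested. A wider siAATF peak was seen for 7 of 10 members, and for 56.8% of all coding genes with both peaks.

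The order of the members was then read from each list. By fold enrichment TFB1M and TFAM were first and second and TEFM last in both lists, while MTERF3 moved from place 9 to place 3. By −log10 q, 6 of 10 places were occupied by the same gene in both lists. The members exchanging places were TFAM with POLG2, and TWNK with TFB1M. With no replicate, it cannot be said which neighbours in these orders differ.

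The direction of the change was also set beside the presence of the core, as a description without a test. Of the 6 members with a core, 5 were lower in siAATF by both measures, with a median of −6.36 points by fold enrichment and −1.75 by −log10 q. Of the 4 without, 3 were lower by both measures, with medians of −10.1 and −4.04 points. Among all coding genes with both peaks, the rank by fold enrichment was lower for 54.8% of those with a core and 47.0% of those without, with medians of −0.487 and 0.613 points. By −log10 q it was lower for 46.2% and 43.9%, with medians of 0.143 and 0.749 points.

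A wider list of 38 genes for the upkeep of mitochondrial DNA and the making and processing of its RNA was examined in the same way. A promoter peak was found for 35 of 38 genes in siControl (92.1%, 78.6 to 98.3) and 36 in siAATF (94.7%, 82.3 to 99.4), and for 34 in both. The shares over all coding genes were 61.1%, 60.7% and 59.5%. Only SLIRP, an RNA-binding partner of LRPPRC, had none in either list. PIF1, a DNA helicase, and PNPT1, a mitochondrial exoribonuclease, had one in siAATF alone, with a −log10 q of 3.24 and 4.16. MPV17, an inner membrane protein whose loss depletes mitochondrial DNA, had one in siControl alone, with 4.46. All 3 of these peaks were under a −log10 q of 5.

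In the wider list both directions were about as frequent. By fold enrichment 19 of 34 genes were lower and 15 higher in siAATF, with a median of −0.363 points. By −log10 q 16 were lower and 18 higher. Of all coding genes with both peaks, 48.9% were lower by fold enrichment and 44.5% by −log10 q. The furthest lower were FEN1, a flap endonuclease, at −27.4 points, DGUOK, a mitochondrial deoxynucleoside kinase, at −23.0 and LRPPRC, which stabilises mitochondrial messenger RNAs, at −18.0. The furthest higher were MGME1, a mitochondrial exonuclease, at 19.9, TOP3A, a topoisomerase, at 15.8 and MTERF4, a relative of MTERF3, at 14.3. Exact cores were found in the siControl peaks of 5 of the 35 genes with a peak (14.3%), and cores with up to 1 mismatch in 12 (34.3%). The shares over all coding genes with a siControl promoter peak were 3.89% and 23.9%. Whether the 10 genes differ from the wider list was not tested.

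**Figure D4:**
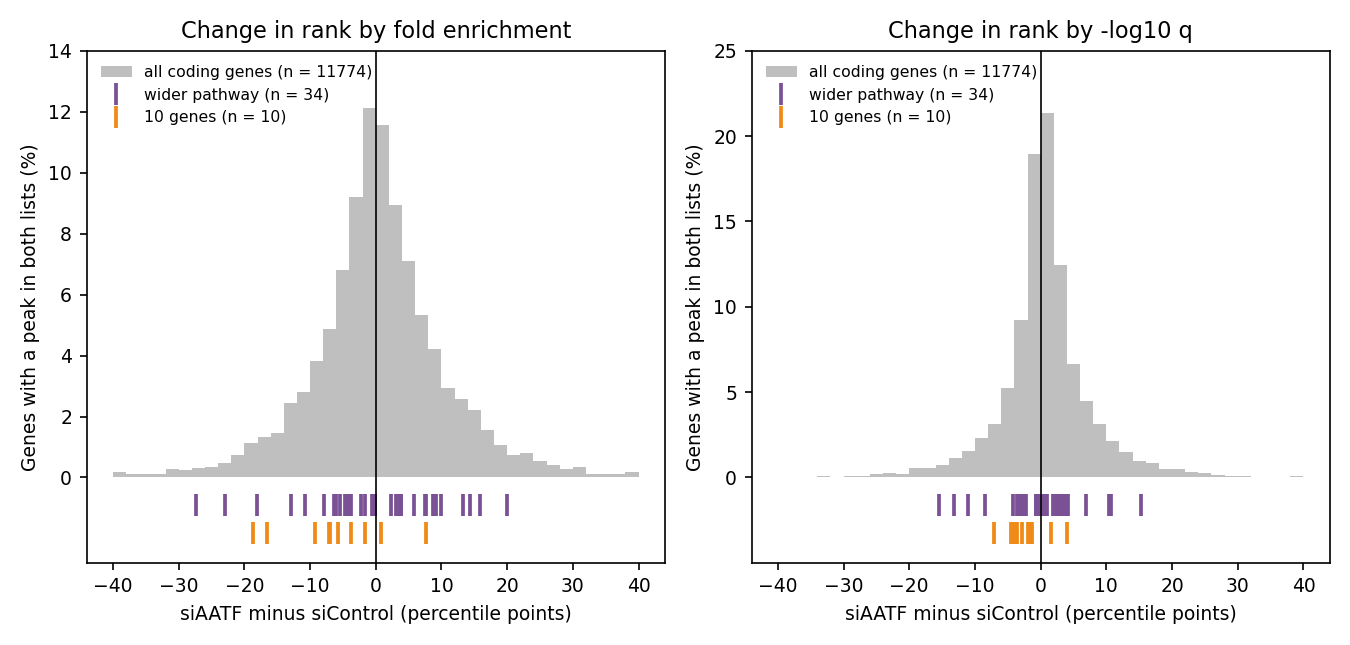
Percentile rank in siAATF minus that in siControl (x axis, points) by fold enrichment on the left and by −log10 q on the right, with grey bars for the share of all coding genes with a peak in both lists (y axis, percent, values beyond 40 points drawn at the edge). Ticks below the bars mark the 34 genes of the wider list (purple) and the 10 genes (orange), of which 8 lie left of 0 in both panels.

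Few other peaks lay near the members. Within the gene or 10 kb on either side, POLRMT had a siAATF-only peak inside the gene (chr19:623985-624303, −log10 q 4.89, rank 31.5), and weak peaks of 1 list each beyond it, at chr19:609103-609400 in siControl and chr19:610547-611015 in siAATF. The other peaks were shared and lay at promoters of neighbouring genes, namely FGF22 for POLRMT, CEP95 and DDX5 for POLG2, LZTS2 for TWNK and UQCRB for MTERF3. Over 500 bp at the canonical start, the members had a median GC content of 64.3%, from 54% in SSBP1 to 70.6% in POLG, against 64.8% for all coding genes. The median ratio of observed to expected CpG, a C followed by a G, was 0.878 in the members and 0.780 in all coding genes. All coding genes here were 19515, with or without a peak.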

How the data were processed

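NRF-1 ChIP-seq peaks of U251 cells were analysed from 1 deposited MACS2 broadPeak list per condition. Per the study's methods and the submitters' processing notes, Bowtie2 aligned the reads to hg19 and MACS2 called the peaks, within the nf-core ATAC-seq pipeline left at its defaults. The methods name the pipeline release, which is not repeated here, and give no separate version of Bowtie2 or MACS2. The sources name neither an input nor an IgG library, and whether the duplicate was pooled was not stated. Deposited by the authors were start and end in bp, a display score (the −log10 q multiplied by 10 and truncated, not used further), the fold enrichment over local background (a ratio), and the −log10 p and −log10 q. In this format the fold enrichment, −log10 p and −log10 q are means over the called region. Weak peaks were kept, down to a −log10 q of 1.03 (siControl) and 1.02 (siAATF). Depth per library was unknown, and a difference in depth would move which peaks were called and their −log10 q. Whether read ends were shifted for the transposase was not stated, and such a shift would move peak edges by a few bases.

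Promoters were 1 kb on either side of any protein-coding transcript start of GENCODE release 44 lifted to GRCh37, on chromosomes 1 to 22, X and Y. GRCh37 has the chromosome sequences of hg19 used here, and every peak on these chromosomes ended within its chromosome. Any overlap of at least 1 base counted. Where several peaks overlapped, the one of highest fold enrichment stood for the gene. Percentile ranks were computed over all peaks of a list. The 19515 genes with a coding canonical transcript entered the windows around the start. Words were searched in GRCh37 sequence. Intervals of shares are exact Clopper-Pearson 95% intervals and cover counting error only, since genes are not independent replicates. Coordinates are 1-based on hg19. Python 3.11.15, numpy 2.4.6, pandas 2.3.3, scipy 1.17.1 and matplotlib 3.10.9 were used, and the assignment of peaks, the ranks and the word search were tested on simulated data. The 10 genes, the wider list, the words and the alternatives were chosen with earlier results of these data known. The genes named were the 10 members, coding genes with a promoter window on their peaks, and genes of the wider list lacking a peak in a list or among the 3 furthest in either direction.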

Additional observations from a re-analysis of the deposited data

How the results depend on the processing

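No paired analysis was possible because each condition had a single list and both labels carry the same replicate number. Over 9 results for counts, medians and the core, 38 of 40 alternative values stayed within 1.5 times for counts or within the exact interval of the median, and 2 moved. When peaks below a −log10 q of 5 were dropped from both lists, the median rank of the members in siControl was 70.5, as fewer and stronger peaks were ranked. With up to 1 mismatch, 6 members in place of 2 held the core, which the looser search itself gives. TEFM was the member lost, leaving 9, under the stricter threshold, among the 10000 strongest peaks and under reciprocal overlap of at least 50%. The other alternatives were promoter windows of 500 bp and 2 kb, the canonical start alone, ranking by −log10 q or among promoter peaks, the peak nearest to the start, the core near the peak midpoint or in the siAATF peak, and chromosomes 1 to 22 and X. The median change in rank ran from −10.8 to −2.41 points. For single members, 26 of 30 alternative changes stayed within the median absolute change of all coding genes, 5.12 points. The 4 that moved, of POLG, POLG2, SSBP1 and MTERF3, were all under ranking by −log10 q, with −7.06, −1.38, −4.44 and 1.58 points, in the same direction. Among promoter peaks alone, POLG was at −23.7 and SSBP1 at −20.7 points. With no replicate and the depth unknown, the error of a difference between the lists is unknown. The A5C and ETS words were chosen with the data in view.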

Other observations

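Both lists also held peaks on the mitochondrial chromosome, and these were looked up after the lists had been examined. There were 4 in each list. In siControl they lay at 85 to 837, 6170 to 6511, 15207 to 15734 and 16185 to 16516. In siAATF they lay at 73 to 669, 3350 to 3668, 9157 to 9542 and 14831 to 16527. The peaks near both ends of the numbering overlapped between the lists. The siAATF peak at 14831 to 16527 also spanned the siControl peak at 15207 to 15734, and the other 3 peaks overlapped none in the other list. All 8 were among the weakest of their list by fold enrichment, with 1.68 to 2.50 in siControl and 1.71 to 2.83 in siAATF, and percentile ranks of 0.0333 to 0.605 and 0.0217 to 1.28. Their −log10 q ran from 1.95 to 6.55 in siControl and from 1.76 to 7.35 in siAATF. Ranked by −log10 q they stood higher, at 6.46 to 39.2 and at 4.55 to 43.8. The mitochondrial sequence used for alignment was not given in the sources used here, so these positions were matched to no gene. No control library was analysed here, and what gave rise to these peaks was not tested.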
